A study of Mus musculus with 9 samples.

Results

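Intercalated cells are the acid-base cells of the connecting tubule and collecting duct of the kidney. The nuclei described here were chosen by their own counts: a nucleus was taken when its unique molecular identifier (UMI) counts of Slc26a4, Slc4a9, Atp6v0d2, Atp6v1g3 and Atp6v1c2 summed to 3 or more. This found 258 of 27738 nuclei (0.930%), with 107 from control mice, 62 from day 7 and 89 from day 28 after ischemia-reperfusion injury (IRI). Single-nucleus RNA was counted in kidneys of 9 male mice aged 11 to 19 weeks. The 4 control mice were Six2TGC; Rosa26rtTA; pTRE-H2BeGFP and received doxycycline food at 625 mg/kg, which turns on a nuclear GFP in the Six2 lineage, labelled as adult nephron. Control mouse 1 had no surgery and control mice 2 to 4 had sham surgery. The injured mice were Krt20T2A-CE; INTACTnuGFP/+, received tamoxifen at 0.05 mg/g, had both renal pedicles clamped for 18 min and were taken at day 7 (2 mice) or day 28 (3 mice). In that line the Krt20 gene, a keratin of injured tubule, drives the recombinase, so GFP marks cells that had expressed Krt20 and their descendants. All nuclei were sorted on Hoechst and GFP. Injury, reporter line and the cells the sort admits therefore differ together between control and IRI and cannot be told apart.

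In a kidney, type A intercalated cells secrete protons into urine through an apical vacuolar proton pump (V-ATPase) and return bicarbonate to blood through the exchanger encoded by Slc4a1. Type B cells secrete bicarbonate through pendrin, the chloride-bicarbonate exchanger encoded by Slc26a4, and carry the transporter encoded by Slc4a9 at the opposite membrane. Both kinds use V-ATPase subunits that few other kidney cells make and depend on Foxi1, a forkhead transcription factor. Collecting duct epithelium descends from the ureteric bud, whereas Six2-expressing progenitors give rise to the nephron.

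Of the genes that chose the nuclei, Slc26a4 encodes pendrin, Slc4a9 the basolateral transporter of type B cells, and Atp6v0d2, Atp6v1g3 and Atp6v1c2 the d2, G3 and C2 subunits of the V-ATPase. Slc26a4 lies at chr12:31519827-31559969 on the minus strand, Atp6v0d2 at chr4:19876841-19922605 on the minus strand, and Atp6v1g3 at chr1:138273738-138289462 on the plus strand (GENCODE M21, GRCm38). Atp6v1c2, at chr12:17284721-17329359 on the minus strand, overlaps Pdia6 on the other strand. Whether the counts keep strand is not stated in the sources used here. The 250 bases before the start of Slc26a4 (chr12:31559985-31560234, minus strand), Atp6v1g3 (chr1:138273488-138273737, plus strand) and Atp6v1b1, the B1 subunit gene (chr6:83742767-83743016, plus strand), are shown from RefSeq on GRCm38.p6 because these genes mark the nuclei and Foxi1 is a forkhead factor. They read 5′ to 3′ along the gene's strand, and capitals mark the forkhead letters searched, TGTTTAC or TATTTAC on either strand, which do not overlap one another.
Slc26a4: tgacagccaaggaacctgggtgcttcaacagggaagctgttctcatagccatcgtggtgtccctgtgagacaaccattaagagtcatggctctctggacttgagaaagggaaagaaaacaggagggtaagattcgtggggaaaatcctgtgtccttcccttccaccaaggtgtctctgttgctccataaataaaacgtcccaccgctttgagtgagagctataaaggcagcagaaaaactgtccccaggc
Atp6v1g3: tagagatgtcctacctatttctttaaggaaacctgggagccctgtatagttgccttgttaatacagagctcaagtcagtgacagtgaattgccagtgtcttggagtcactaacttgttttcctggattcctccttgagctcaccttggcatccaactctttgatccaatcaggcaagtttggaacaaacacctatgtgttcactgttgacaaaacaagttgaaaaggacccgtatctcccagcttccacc
Atp6v1b1: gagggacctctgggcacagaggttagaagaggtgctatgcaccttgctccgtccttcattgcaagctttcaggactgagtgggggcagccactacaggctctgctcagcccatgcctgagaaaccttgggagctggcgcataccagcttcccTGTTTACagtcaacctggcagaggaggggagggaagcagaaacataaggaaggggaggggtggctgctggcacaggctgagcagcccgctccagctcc
The Atp6v1b1 window held a match 98 bases before the start, and the other windows printed held none. Of 29 intercalated cell genes, 21 had an entry in the table, with 24 promoters, of which 2 held a match (8.33%), those of Atp6v1b1 and Hmx2. Among all 32851 promoters of the same length, 1892 held one (5.76%). The presence or absence of these letters in a window is a description of the window.

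By the choice itself, the 5 genes were far above other nuclei. Slc26a4 was at 3911, 2328, 1979 and 4464 UMIs per 1000000 UMIs (CPM) in the intercalated nuclei of control mice 1 to 4. It was at 1631 and 2435 CPM at day 7, and at 2535, 1632 and 1106 CPM at day 28. The other nuclei of the same libraries had 0.779 to 3.85 CPM of Slc26a4. A UMI of Slc26a4 was found in 131 of the 258 nuclei (50.8%), of Slc4a9 in 179 (69.4%), of Atp6v0d2 in 195 (75.6%), of Atp6v1g3 in 153 (59.3%) and of Atp6v1c2 in 158 (61.2%). All 5 genes were seen together in 52 nuclei.

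The threshold cut through a thinly filled range. There were 617 nuclei with a sum of 1, 66 with a sum of 2, 48 with a sum of 3, 86 with 4 to 9 and 124 with 10 or more. Foxi1, Atp6v1b1, Hepacam2 and the ammonia channel gene Rhcg were not used by the choice and describe its edge, a set of 4 picked after their values were seen. At least 1 of them had a UMI in 21.2% of nuclei just outside (sum 2) and 37.5% of those just inside (sum 3). At sums of 10 or more this was 85.5%, and at a sum of 0 it was 2.20%. The median UMI count was 2718.5 for a sum of 2, 2402.5 for a sum of 3 and 2874.5 for 10 or more.

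The 4 edge markers were seen less often where 1 gene alone carried the sum. Of the 258, 218 had UMIs of 2 or more of the 5 genes and 40 had only 1, which was Atp6v0d2 in 24. This count uses the genes that chose the nuclei, so it does not test the label. These 40 were 8 of the 107 control nuclei, 17 of 62 at day 7 and 15 of 89 at day 28. In the 32 such nuclei of IRI mice Foxi1 and Insrr had no UMI, and any of the 4 edge markers was seen in 2 of 17 at day 7 and 1 of 15 at day 28. In the nuclei with 2 or more genes it was seen in 35 of 45 and 68 of 74. Slc12a1, the salt cotransporter of the thick ascending limb, stood at 2040 CPM over the 32 single-gene IRI nuclei, with UMIs in 8 of them, and at 269 CPM over the 119 IRI nuclei with 2 or more genes. Where the calls of a list against control differed in nuclei with 2 or more genes, this is given below.

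Markers of intercalated cells outside the rule followed the label, as a description with no test, because the nuclei were chosen by expression. Foxi1 (chr11:34204338-34208089, minus strand) was at 27.2 to 470 CPM over the 9 libraries, with a median of 106.6, and at 0.173 to 3.30 CPM in other nuclei. It had a UMI in 20.9% of intercalated nuclei and 0.120% of others, whose median depths were 2321.5 and 1934 UMIs. Atp6v1b1 was at 76.1 to 272 CPM against 2.08 to 7.23 CPM. Hepacam2, an adhesion protein gene of these cells, was at 136 to 310.0 CPM against 0.203 to 1.73 CPM, and Rhcg was at 137 to 529 CPM against 3.14 to 23.4 CPM. For these 4 genes no library's intercalated nuclei overlapped the range of the others. Atp6v0a4, the a4 subunit gene, separated them less: 416 to 1468 CPM against 238 to 774 CPM, with a UMI in 193 of 258 nuclei and in 49.3% of other nuclei. Dgki, Atp12a (an H+/K+-ATPase gene) and Elf5 (a principal cell transcription factor gene) had no UMI in the 258 nuclei.

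**Figure D1:**
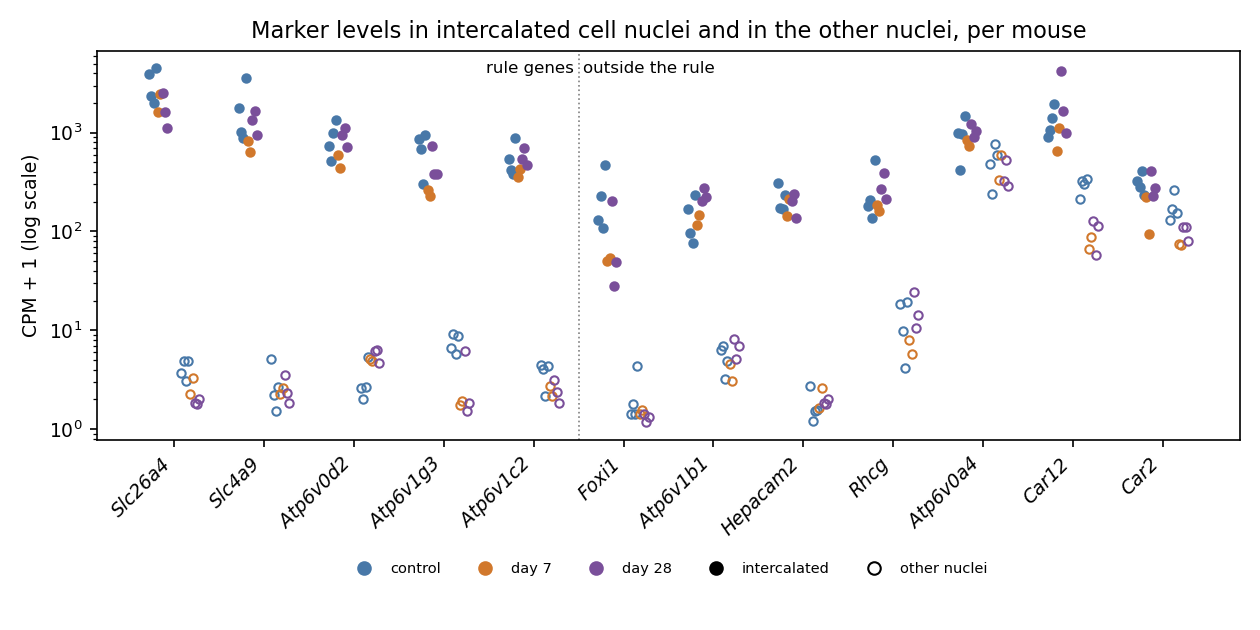
Each point is 1 library, with CPM plus 1 on a log axis for 12 genes. Filled points are the intercalated nuclei and open points all other nuclei of the same library, coloured by group. Slc26a4 sits at 1106 to 4464 CPM in the intercalated nuclei of the 9 libraries, while the ranges of Atp6v0a4 in intercalated and other nuclei overlap.

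Genes not used by the choice that stood highest over other nuclei, by the median log2 ratio over 9 libraries with 10 CPM added, were led by Lsamp at 6.68, Tmem117 at 5.21, Syn2 at 5.10, Rtl4 at 4.84 and Insrr at 4.81. Lsamp encodes a cell adhesion protein best known from neurons, Syn2 a synapsin and Insrr a receptor kinase that senses alkaline pH. Gm12121 (4.61), Rcan2 (4.59), Clnk (4.33), the BMP receptor gene Bmpr1b (4.30) and Hepacam2 (4.26) came next. They were followed by Adgrf5 (4.23), Irs1 (4.16), Oxgr1 (4.11), Pde4b (4.10) and Tmem163 (4.09). Of 1574 such genes with at least 100 UMIs over the intercalated nuclei, 190 were higher than in other nuclei in 9 of 9 libraries and 141 were lower in 9 of 9. Among V-ATPase subunits that most cells make, Atp6v1a, Atp6v1h, Atp6v0b, Atp6v1d and the accessory protein gene Atp6ap2 were higher in 9 of 9 libraries. Atp6v1b2 and Atp6v1c1, the widely expressed forms of the B and C subunits, were higher in 1 of 9 libraries each.

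The nuclei fell into kinds by which anion exchanger transcripts they held. Slc26a4 without Slc4a1 or Aqp6 was seen in 128 nuclei, Slc4a1 or Aqp6 (a water channel gene of type A cells) without Slc26a4 in 51, both in 3 and neither in 76. Median depth was 2017 UMIs in the Slc26a4 nuclei and 3006 UMIs in the Slc4a1 or Aqp6 nuclei. Other genes split along the same line, in shares of nuclei with a UMI. The type B genes Insrr and Hmx2, a homeobox gene, were seen in 63.3% (95% exact interval 54.3% to 71.6%) and 27.3% (19.8% to 35.9%) of the Slc26a4 nuclei. In the Slc4a1 or Aqp6 nuclei Insrr was seen in 1.96% (0.0496% to 10.4%) and Hmx2 in 0 of 51, which allows a share of up to 5.88% (3 counts of 51). Lsamp was seen in 90.6% against 1.96% and Tmem163 in 56.2% against 5.88%. In other kidney nuclei Insrr was seen in 0.146% and Hmx2 in 0.0691%.

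Genes of type A cells ran the other way. Adgrf5, an adhesion receptor gene, was seen in 6.25% of the Slc26a4 nuclei and 80.4% of the Slc4a1 or Aqp6 nuclei, the adaptor gene Clnk in 16.4% and 70.6%, and the receptor kinase gene Kit in 9.38% and 64.7%. Dmrt2, a transcription factor gene, was seen in 0 of 128 (allowing up to 2.34%) and in 23.5%. Not every listed marker kept its side: Oxgr1, listed with type B, was seen in 22.7% of the Slc26a4 nuclei and 47.1% of the Slc4a1 or Aqp6 nuclei. Slc4a9, a type B transporter, leaned to its side but was common in both kinds, seen in 85.2% and in 60.8%, at 1908 and 561 CPM. It was one of the genes that chose the nuclei, and nuclei without Slc26a4 had to reach the sum through it or the V-ATPase genes. Slc4a8, also listed with type B, was seen in 2 of 128 nuclei and in none of 51. Foxi1 and Atp6v1b1 were seen in both kinds, Foxi1 in 28.1% and 15.7% and Atp6v1b1 in 31.2% and 54.9%. Intervals cover counting error only, since nuclei of 1 mouse are not independent samples, and GENCODE places Insrr over Pear1, Hmx2 over Fgfr2 and Clnk over Clnkos on opposite strands.

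**Figure D2:**
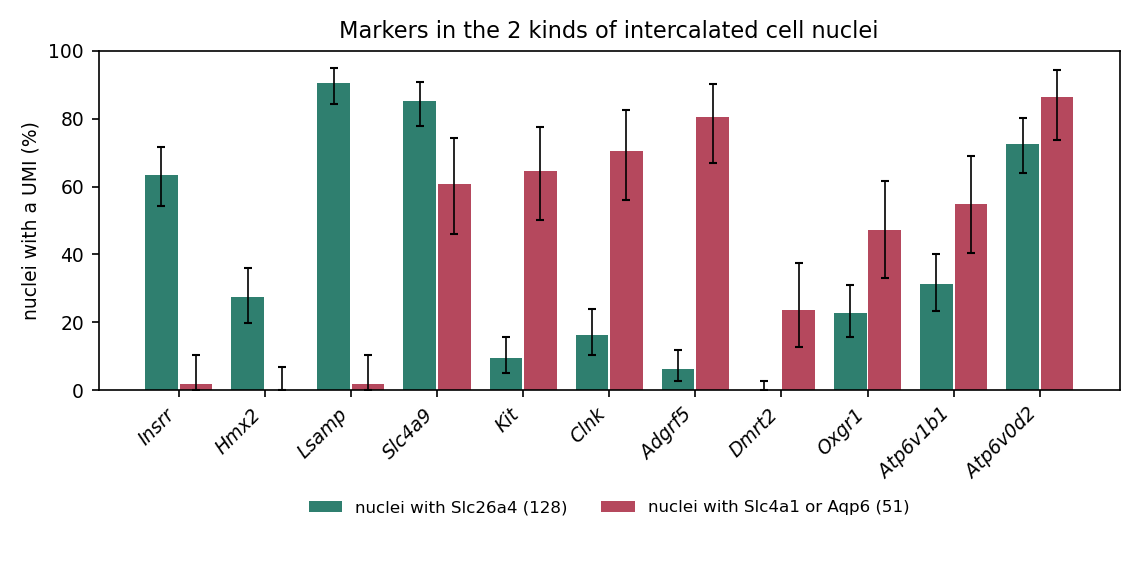
Percent of nuclei with at least 1 UMI of each gene (x axis) in the 128 nuclei with Slc26a4 and the 51 with Slc4a1 or Aqp6, with 95% exact binomial intervals. Insrr, Hmx2 and Lsamp lie higher in the first and Kit, Clnk, Adgrf5 and Dmrt2 in the second. Slc4a9, a choosing gene, is common in both and higher in the first. Oxgr1, listed with type B, is higher in the second.

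The share of sorted nuclei that were intercalated did not differ beyond the spread between mice. It was 1.14%, 0.825%, 0.482% and 0.951% in control mice 1 to 4, 1.04% and 0.613% at day 7, and 1.83%, 0.891% and 1.43% at day 28. The ranges of the 3 groups overlapped, with the lowest share in a control and the highest in a day 28 mouse. The mean over IRI mice was 0.310 percentage points above that of controls (exact two-sided permutation test over 126 splits of 9 mice, p = 0.302, adjusted over the 2 comparisons p = 0.302). Day 28 exceeded day 7 by 0.556 points (exact permutation test, p = 0.3, adjusted p = 0.302), where 10 splits allow no p below 0.1. With each nucleus thinned to 1000 UMIs and shallower ones left out, the differences were 0.0879 points (exact permutation p = 0.730) and 0.511 points (exact permutation p = 0.2). These are shares of GFP-sorted nuclei, which the sort sets in each line.

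**Figure D3:**
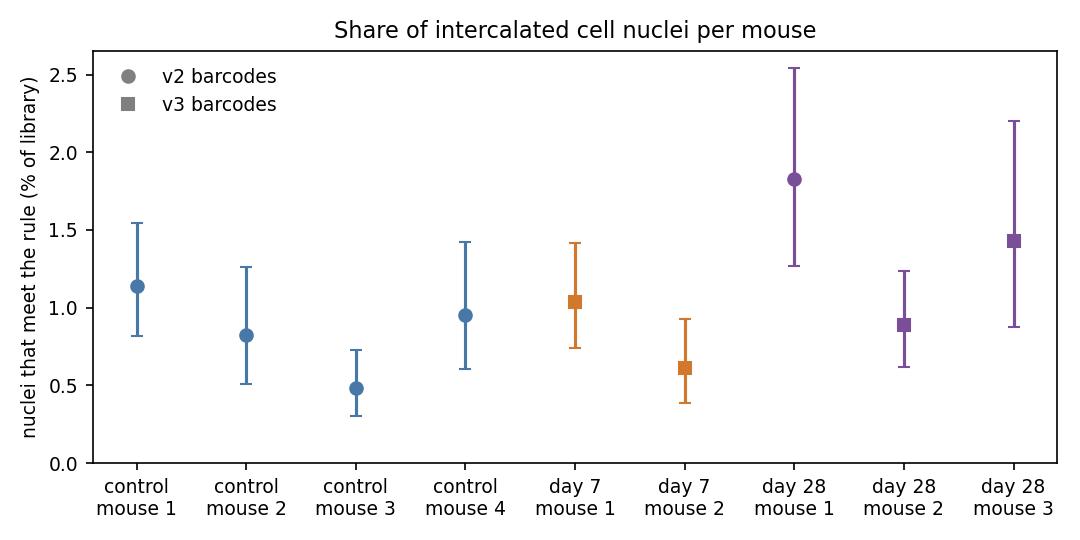
Percent of each mouse's nuclei that met the rule, with 95% exact binomial intervals. Circles are libraries with v2 cell barcodes and squares those with v3 barcodes. The 4 controls span 0.482% to 1.14% and the 5 IRI mice 0.613% to 1.83%, so the groups overlap.

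The makeup by kind differed between groups, given as a description because Slc26a4 was one of the choosing genes. Nuclei with Slc26a4 alone of the exchangers were 63.6% of control intercalated nuclei, 57.1% to 69.6% per mouse. They were 35.0% and 50% in the day 7 mice and 55.9%, 37.1% and 15.0% in the day 28 mice. No IRI mouse reached the control range, though day 28 mouse 1 came close to its lower end. The 40 single-gene nuclei, which are more frequent in IRI, are in the denominator of these shares. Median depth of the intercalated nuclei was 1470 UMIs in controls, 3700.5 at day 7 and 2355 at day 28.

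**Figure D4:**
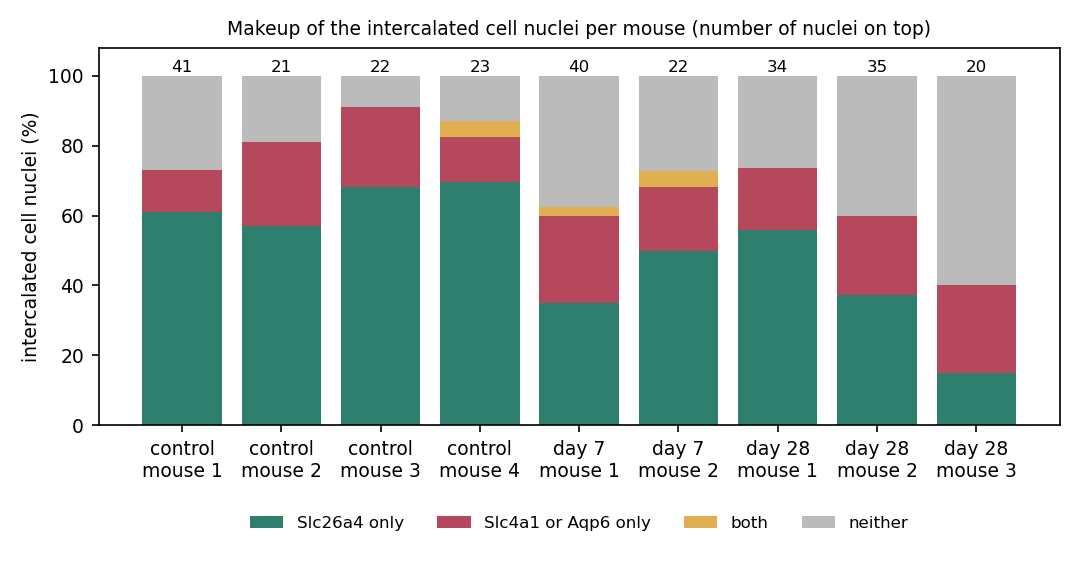
Stacked percent of each mouse's intercalated nuclei with Slc26a4 only, with Slc4a1 or Aqp6 only, with both and with neither. The Slc26a4 part is 57.1% to 69.6% in controls and 15.0% to 55.9% in IRI mice.

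The libraries differed in more than group. Their cell barcodes began with the starts of the v2 set in the 4 controls and day 28 mouse 1, and of the v3 set in both day 7 mice and day 28 mice 2 and 3. The labels name both kits but not the kit of each library. Of all barcodes 132 occurred in more than 1 library; these included the barcodes of 3 intercalated nuclei, none of them intercalated in both libraries. The intercalated sums of a library held 17025 to 201682 UMIs from 20 to 41 nuclei. Each library is taken as 1 mouse, and p-values measure only the spread between these samples, which may be technical in part.

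Transcripts of other tubule cells were present in the intercalated nuclei and bear on the comparison with controls. UMIs of 12 proximal tubule genes summed to 30.2% to 55.4% of their level in other nuclei in the control mice and 46.4% to 91.7% in the IRI mice. UMIs of 20 tubule injury genes, among them Havcr1 (kidney injury molecule 1) and Vcam1 (an adhesion molecule of injured tubule), summed to 705 to 883 CPM in control intercalated nuclei. They summed to 7274 and 9100 CPM at day 7 and 2839, 5268 and 4015 CPM at day 28. Other nuclei had 849 to 1270 CPM in controls, 10213 and 10692 CPM at day 7 and 8399, 8583 and 8484 CPM at day 28.

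The same injury transcripts were found in nuclei with markers of other cell types. Nuclei with 10 or more UMIs of the thick ascending limb genes Slc12a1 and Umod had 7274 and 8091 CPM of the injury genes at day 7 and 3378, 4260 and 4638 CPM at day 28, a class set after the data were seen. In controls they had 1284 to 1876 CPM. Connecting tubule and principal cell nuclei, chosen by 7 genes named further on, had 8540 and 8106 CPM at day 7 and 4133, 5812 and 5650 CPM at day 28. Havcr1 was seen in 31.1% of intercalated nuclei of IRI mice at 355 CPM, in 27.1% of the thick ascending limb-gene nuclei at 384 CPM and in 46.1% of all other nuclei at 643 CPM. Median depths were 2982, 2323.5 and 2489 UMIs. Over IRI nuclei, other injury transcripts in intercalated nuclei lay above or below thick ascending limb-gene nuclei. Cp was higher at 777 against 499 CPM, Vcam1 at 248 against 155 CPM and Sorcs1, outside the list, at 628 against 432 CPM. All other nuclei had 998, 346 and 898 CPM of these genes. Lower in intercalated nuclei were Pdgfd at 857 against 1104 CPM, Il34 at 686 against 834 CPM and Itgb6 at 835 against 875 CPM. In IRI intercalated nuclei with 2 or more choosing genes Cp was at 525, Vcam1 at 237 and Sorcs1 at 522 CPM. In those nuclei Cd44, Dock10, Cdh6 and Runx1 were at 216, 506, 298 and 136 CPM. Thick ascending limb-gene nuclei had 240, 598, 348 and 147 CPM of these, and all intercalated nuclei 319, 632, 437 and 177 CPM. Whether intercalated cells made these transcripts was not tested. In the 45 IRI intercalated nuclei with no UMI of the proximal tubule genes, injury genes summed to 2117 CPM, against 6679 CPM in the other 106. Their median depths were 1560 and 3402 UMIs. The days differ in this split. At day 7 it was 6503 CPM in 10 nuclei without such UMIs against 7847 CPM in 52 with them. At day 28 it was 998 CPM in 35 nuclei against 5231 CPM in 54.

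**Figure D5:**
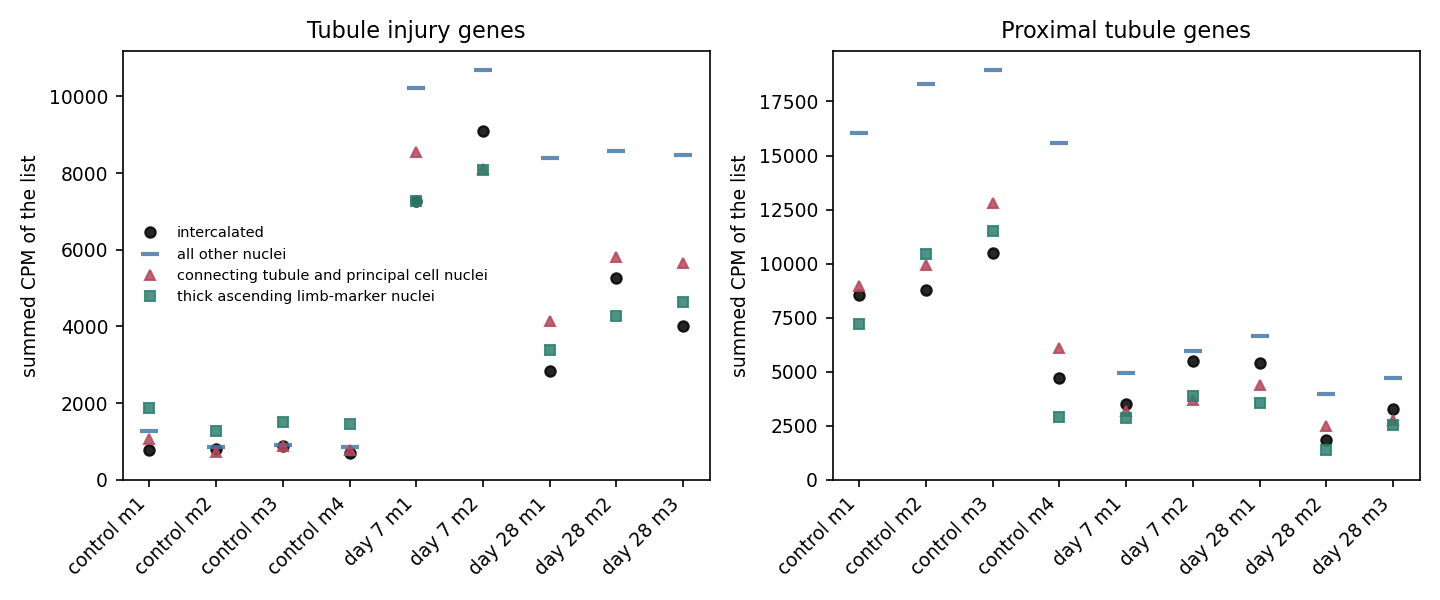
Summed CPM of the 20 injury genes and of the 12 proximal tubule genes per mouse, in intercalated nuclei, all other nuclei, connecting tubule and principal cell nuclei and thick ascending limb-gene nuclei. The injury sum in intercalated nuclei of IRI mice, 2839 to 9100 CPM, lies near those of the thick ascending limb-gene nuclei and below all other nuclei.

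Against controls, Foxi1, Rhbg and Insrr were called lower in the intercalated nuclei of IRI mice, though none of them with the barcode set as a term. No gene of the lists of intercalated, type A or type B markers outside the rule was called higher. UMIs were summed per mouse and compared with edgeR's quasi-likelihood test over 2370 genes, with Benjamini-Hochberg adjustment. Of these, 401 passed an adjusted p of 0.05 (16.9%), 168 higher in IRI (7.09%) and 233 lower (9.83%). The median log2 change over all genes was -0.003. Fewer genes passed without control mouse 1 (217), control mouse 2 (207) or day 7 mouse 1 (245). Of the intercalated markers outside the rule, 2 of the 11 tested of 14 fell and none rose, with a median of -0.55. This share called is near the 16.9% over all genes. Of the type A list 0 of 4 tested were called, and of the type B list 1 of 2.

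Foxi1 stood at 189.8, 369.6, 153.9 and 699 CPM in control mice 1 to 4, here and below scaled by edgeR's TMM factors. It was at 59.6 and 62.0 CPM at day 7 and 283, 35.9 and 63.8 CPM at day 28. Day 28 mouse 1, the IRI mouse with v2 barcodes, was inside the control range and the other 4 IRI mice were below it. The log2 change was -1.80 (SE 0.55, edgeR adjusted p = 0.029). Without any 1 of control mice 1, 2 and 4, day 7 mouse 1 or day 28 mouse 3, the call of Foxi1 was lost, with log2 changes of -2.05, -1.67, -1.48, -1.65 and -1.62. Among v2 libraries alone (day 28 mouse 1 against the 4 controls, the lone mouse assumed to vary like the controls) the change was 0.07, and with the barcode set as a term it was 0.16. Foxi1 thus changed sign when barcode sets were matched, and group and barcode set are nearly the same split of the mice. Within the nuclei with Slc26a4 alone, Foxi1 had a UMI in 35.3% of 68 control, 20% of 25 day 7 and 20% of 35 day 28 nuclei.

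Rhbg, an ammonia transporter gene of the basolateral membrane, stood at 242, 308, 132 and 612 CPM in controls, 89.4 and 46.5 CPM at day 7 and 118, 23.9 and 63.8 CPM at day 28. All 5 IRI mice were below all 4 controls, as for 5.11% of the genes tested. The change was -1.99 (SE 0.52, edgeR adjusted p = 0.012), and the call was lost without control mouse 1 (-2.12, edgeR adjusted p = 0.051) or control mouse 2 (-1.95, edgeR adjusted p = 0.056). It was -1.10 among v2 libraries alone and -0.79 with the barcode term, neither past the threshold. Rhbg was also lower in the connecting tubule and principal cell nuclei (-1.59, edgeR adjusted p = 0.011) and in all other nuclei (-1.40, edgeR adjusted p = 0.030).

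Insrr stood at 794, 585, 374 and 699 CPM in controls, 143 and 155 CPM at day 7 and 377, 371 and 229.5 CPM at day 28. The highest day 28 mouse was just above the lowest control, and the other 4 IRI mice were below all controls. The change was -1.47 (SE 0.30, edgeR adjusted p = 0.0022), and the call stood without any 1 library. It was -0.63 among v2 libraries alone and -1.19 with the barcode term, neither past the threshold. Within the nuclei with Slc26a4 alone, Insrr had a UMI in 66.2% of 68 control, 48% of 25 day 7 and 68.6% of 35 day 28 nuclei, at 589, 270 and 686 CPM (pooled over mice, no TMM factors, no test). The share of Slc26a4 nuclei was lower in IRI mice, and its part in the change of Insrr was not tested.

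The other markers did not pass the test. Atp6v1b1 was at 242, 154, 110.0 and 349.6 CPM in controls, 137 and 170.5 CPM at day 7 and 283, 359 and 293 CPM at day 28, a change of 0.18 (SE 0.36, edgeR adjusted p = 0.81). Atp6v0a4 changed by -0.24 (SE 0.29, edgeR adjusted p = 0.65) and Aqp6 by -0.75 (SE 0.49, edgeR adjusted p = 0.34). Slc4a1 and Hmx2 were too low to be tested. Kit, the receptor kinase gene of the type A list, was at 207, 246, 132 and 87.4 CPM in controls, 262 and 232.5 CPM at day 7 and 188, 777 and 905 CPM at day 28. Its change was 1.15 (edgeR adjusted p = 0.072). In nuclei with 2 or more of the choosing genes it was 1.68 (edgeR adjusted p = 0.026), without day 28 mouse 1 it was 1.34 (edgeR adjusted p = 0.0038), and with the barcode term it was -0.82. The choosing genes, given with no test, had log2 changes of -0.98 for Slc26a4, -1.04 for Slc4a9, -0.53 for Atp6v0d2, -1.21 for Atp6v1g3 and -0.37 for Atp6v1c2.

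Of 11 widely expressed V-ATPase subunit genes tested of 17, 3 fell and 0 rose, with a median of -0.58. Over all genes tested 9.83% fell and 7.09% rose. Atp6v1b2 fell by 0.98 (edgeR adjusted p = 0.028), Atp6v0e by 1.69 and Atp6v0b by 1.04 on the log2 scale. Atp6v1b2 was at 345, 308, 329.9 and 262 CPM in controls and 143 to 212 CPM in IRI mice. All IRI mice were below all controls, as for 5.11% of the genes tested. Atp6v1b2 was lower in all other nuclei too (-0.87, edgeR adjusted p = 0.0037). Each of these 3 calls was lost without at least 3 of the libraries taken singly: Atp6v0e without control mouse 2 (-1.11), control mouse 3 (-1.75) or day 7 mouse 1 (-1.56). In nuclei with 2 or more of the choosing genes only Atp6v1b2 was called of 10 tested, and Atp6v0b (-0.89, edgeR adjusted p = 0.065) and Atp6v0e (-1.42, edgeR adjusted p = 0.073) were not. Single libraries without which the call of Atp6v1b2 was lost were control mice 1 to 3 (-0.93, -1.01, -0.95), both day 7 mice (-0.81, -0.93) and day 28 mice 2 and 3 (-0.91, -0.97). For Atp6v0b they were control mice 2 and 4 (-0.79, -0.86), both day 7 mice (-0.76, -1.09) and day 28 mice 2 and 3 (-0.99, -0.91).

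Among 8 tested of 17 other transport genes, 1 rose and 2 fell, with a median of -0.20, beside 7.09% and 9.83% over all genes. Atp1b1, the beta subunit gene of the sodium pump, fell by 0.92 (edgeR adjusted p = 0.013) and also in all other nuclei (-1.45). The endosomal chloride transporter gene Clcn3 fell by 1.11, and the potassium channel gene Kcnma1 rose by 1.75 (edgeR adjusted p = 0.034). Kcnma1 was at 638 and 294.5 CPM at day 7 against 0 to 132 CPM in controls and 47.1 to 263 CPM at day 28, so both day 7 mice and day 28 mouse 2 stood above all controls. Pooled over mice without TMM factors, it was at 289 CPM in IRI and 54.7 CPM in control intercalated nuclei. It was higher in IRI in other classes too: 322 against 90.5 CPM in all other nuclei and 179 against 48.4 CPM in thick ascending limb-gene nuclei. Connecting tubule and principal cell nuclei had 167 against 58.9 CPM. The calls of these genes were lost without single libraries: Atp1b1 without control mouse 2 (-0.86) or day 7 mouse 1 (-0.71) or 2 (-0.91), and Clcn3 without any of control mice 1 to 3 (-1.19, -1.03, -0.99), day 7 mice 1 and 2 (-1.15, -0.95) or day 28 mouse 3 (-0.94). The call of Kcnma1 was lost without control mouse 1 (1.80), 2 (1.37) or 4 (1.76), day 7 mouse 1 (1.5) or day 28 mouse 2 (1.37).

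Nuclear-encoded genes of mitochondrial energy production fell in 4 of 10 tested (of 15), and 0 rose, with a median of -0.78. The shares over all genes were 9.83% lower and 7.09% higher. Ndufa4, a respiratory chain subunit gene, was at 207, 524, 242 and 349.6 CPM in controls, 17.9 and 15.5 CPM at day 7 and 141, 47.8 and 25.5 CPM at day 28. All IRI mice were below all controls, as for 5.11% of the genes tested. Ndufa4 fell by 3.19 on the log2 scale (SE 0.54, edgeR adjusted p = 0.00054). Atp5b, an ATP synthase subunit gene, fell by 2.02 (edgeR adjusted p = 0.00068), Cox7a2 by 2.42 and Atp5a1 by 1.48. In all other nuclei Ndufa4 fell by 3.25 and Atp5b by 2.08. Cox7a2 lost its call without day 7 mouse 1 (-1.92) and in nuclei with 2 or more of the choosing genes (-2.02, edgeR adjusted p = 0.058), where 3 of the 10 were called, and Atp5a1 without control mouse 2 (-1.47), 3 (-1.28) or 4 (-1.38) or day 7 mouse 2 (-1.22). Among v2 libraries alone Ndufa4 was at -1.07 and Atp5b at -0.67, neither past the threshold.

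Of the lists of other cells, the proximal tubule list had 7 of 10 tested genes lower and 0 higher (median -1.85, of 12). The tubule injury list had 10 of 11 higher and 0 lower (median 3.56, of 20). Over all genes 9.83% were lower and 7.09% higher. Setting the 3 injury genes at 0 in every control at their bounds could not move that list's median, since the log2 bounds (4.70, 4.54 and 4.18) lie above it. Runx1, Cp, Dock10 and Cdh6 were at only 9.12, 13.7, 22.8 and 27.3 CPM in control intercalated nuclei. Genes at or near 0 in controls were tested because of their IRI counts, so the count of 10 is a description. Transcripts of both lists were also found in nuclei with markers of other tubule segments, as given above. What part such RNA has in these changes was not tested. Of the thick ascending limb list 0 of 5 tested were called, of the distal convoluted tubule list 0 of 2, and of the connecting tubule and principal cell list 0 of 1. Of the collecting duct fate list 1 of 4 was called, Foxi1 again, of the urinary defence list 0 of 1 and of the immediate early and stress list 0 of 1. No gene of the endothelium, stroma or leukocyte lists was abundant enough to be tested.

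Over all genes tested, the largest fitted rises were in genes with no UMI in control intercalated nuclei, among them Havcr1, Cd44 and Vcam1 of the injury list. Against a floor of 3 UMIs over all control intercalated nuclei, Sorcs1, a sorting receptor gene, was at least 45.9-fold higher, Havcr1 at least 26.0-fold, Cd44 at least 23.3-fold and Gpc3 at least 20.2-fold. Kcnh8, Vcam1, Camk1d and Gxylt2 were at least 18.9-fold, 18.1-fold, 8.52-fold and 8.39-fold higher. These bounds pool the UMIs of all IRI intercalated nuclei and do not hold for each mouse. Havcr1 had 118 and 53 UMIs in the day 7 mice and 2, 19 and 3 in the day 28 mice. Cd44 had 77 and 66 against 2, 26 and 4, and Gpc3 had 88 and 26 against 2, 30 and 6. The 8 rose in all other nuclei too, by fitted log2 changes from 2.00 (Gpc3, edgeR adjusted p = 0.0019) to 7.36 (Kcnh8). All 5 IRI mice were above all 4 controls for each of the 8 but Gxylt2, as for 7.22% of the genes tested. With no UMI in controls, the 8 were tested only because of their IRI counts, and 1 UMI in each IRI mouse sufficed. This lack of overlap is therefore a description. Gxylt2 lost its call without control mouse 1, 2 or 3 or day 7 mouse 1, with fitted log2 changes of 6.07, 6.15, 6.12 and 5.31. The largest falls were in Ttr (-5.53), Ftcd (-4.70), Rps23 (-4.57), mt-Nd1 (-4.54), Gm17359 (-4.42), Aadat (-4.32), mt-Cytb (-4.26) and Khk (-3.95). These 8 also fell in all other nuclei, from -3.20 (Aadat) to -6.50 (Ftcd). Ftcd, Aadat and Khk are metabolic enzyme genes of proximal tubule, and Rps23, mt-Nd1 and mt-Cytb encode a ribosomal protein and mitochondrial respiratory subunits. The call of Khk was lost without control mouse 2 (-3.88) and that of mt-Cytb without any of control mice 1 to 3 (-4.39, -3.99, -4.09) or day 7 mouse 1 (-4.00).

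Few of these calls passed the threshold when the barcode set was matched, in fits that rest on 1 IRI mouse with v2 barcodes. Adding the barcode set to the model left 5 called genes, all higher in IRI: Cp, Dock10, Kcnip4, Sorcs1 and Vcam1. Fitted changes of Havcr1 (5.90) and Cd44 (5.64) in that model kept their direction without passing it. Among v2 libraries alone 23 were called, 13 higher and 10 lower, and 16 of them were called over all libraries. The 13 held Car12, a membrane carbonic anhydrase gene of intercalated cells, which in day 28 mouse 1 was at 5887 CPM against 1294 to 2884 CPM in the controls and 775 to 2188 CPM in the other IRI mice. Car12 changed by -0.10 over all libraries (edgeR adjusted p = 0.90). In nuclei with 2 or more of the choosing genes 307 genes were called, of which 287 were among the 401, which is 71.6% of the 401 and 93.5% of the 307.

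Between the injury times, 19 of 2370 genes differed (0.802%), 15 higher at day 28 (0.633%) and 4 lower (0.169%), by the same edgeR fit. There were 1 without day 7 mouse 1, 8 without day 7 mouse 2 and 44 without day 28 mouse 2. Both times come from the same mouse line and sort, but day 28 mouse 1 alone has v2 barcodes. Clnk, of the type A list, was at 149 and 46.5 CPM at day 7. At day 28 it was at 353, 466 and 650.4 CPM, all above day 7 as for 14.2% of genes. Its change was 2.14 (SE 0.42, edgeR adjusted p = 0.015), 2.29 among v3 libraries alone (edgeR adjusted p = 0.029), and the call was lost without day 7 mouse 1 (3.36, edgeR adjusted p = 0.050) or day 7 mouse 2 (1.69, edgeR adjusted p = 0.30). Clnk stood between 329.9 and 437 CPM in the controls, above both day 7 mice. Havcr1 fell by 2.71 from day 7 to day 28 (SE 0.48, edgeR adjusted p = 0.012), but DESeq2 did not call it (-2.91, DESeq2 adjusted p = 0.45). It was at 703.5 and 821.5 CPM at day 7 and 47.1, 227 and 38.3 CPM at day 28, all 3 below day 7 as for 13.4% of genes. Pooled over mice without TMM factors, Havcr1 went from 618 to 88.1 CPM in intercalated nuclei and from 967 to 268 CPM in all other nuclei. It went from 719 to 195 CPM in connecting tubule and principal cell nuclei and from 624 to 106 CPM in thick ascending limb-gene nuclei.

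Of the remaining lists no gene was called between the times, and the medians were 0.80 for intercalated markers outside the rule and 0.33 for widely expressed V-ATPase genes, beside 0.02 for all genes. None of the intercalated markers outside the rule passed the threshold. Atp6v1b1 changed by 1.06 (SE 0.40, edgeR adjusted p = 0.31) with all 3 day 28 mice above both day 7 mice, as for 14.2% of genes. The largest rises were in Gm26699 (6.38), Gm15614 (6.36), Wdr17 (4.79), Gm48678 (4.65), Gm26904 (4.42), Gm35188 (4.40), Gm26733 (3.57) and 4930486I03Rik (3.26). All but Wdr17 are predicted or uncharacterised transcripts. Cdh13 (-3.83), Gm42418 (-2.79) and Peak1 (-1.71) fell. DESeq2 did not call Wdr17, Cdh13 or Gm42418 (DESeq2 adjusted p = 0.061, 0.87 and 0.068). Without day 7 mouse 1, only Gm42418 was called between the times. Calls were also lost for Gm26699 without control mouse 2 (6.47) or 4 (6.52) or day 7 mouse 2 (6.37), and for Gm15614 without control mouse 1 (6.40) or 2 (6.46) or day 7 mouse 2 (6.36). The same held for 4930486I03Rik without control mouse 1 (3.29), day 7 mouse 2 (2.71) or day 28 mouse 3 (3.30), for Gm26733 without day 7 mouse 2 (3.49), for Cdh13 without day 28 mouse 3 (-3.18) and for Peak1 without day 7 mouse 2 (-1.22). Malat1, a nuclear long noncoding RNA, took 7.01% and 9.59% of UMIs in day 7 intercalated nuclei, 14.1% to 15.9% at day 28 and 19.7% to 25.8% in controls, and its part in these changes was not tested.

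The response of intercalated nuclei was set against that of 1052 connecting tubule and principal cell nuclei, the neighbouring cells of the same tubule, chosen by 3 or more UMIs over Calb1, Slc8a1, Aqp2, Hsd11b2, Scnn1b, Scnn1g and Aqp3. An edgeR interaction with the library as a block found 31 of 4846 genes that responded differently (0.640%), 20 with a higher change in intercalated nuclei (0.413%) and 11 with a lower one (0.227%). In the same design connecting tubule and principal cell nuclei changed in 27.5% of 8062 genes and all other nuclei in 48.4% of 15248, sums of more UMIs. The 31 became 13, 19, 13 and 12 without control mice 1 to 4 in turn and 9 without day 7 mouse 1. Thsd7a, a membrane protein gene, changed by 0.22 in intercalated nuclei and 3.38 in the neighbours, a difference of -2.95 (SE 0.52, edgeR adjusted p = 0.0030). Ccbe1 changed by 0.29 against 4.19, and Epb41l2 by -0.24 against 2.92. The thyrotropin receptor gene Tshr changed by -0.90 against 2.82. For these 4 genes the neighbours changed and intercalated nuclei, where the genes were already at 92.4 to 858 CPM in controls, stayed within overlapping ranges.

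Car12 differed by 1.24 between the classes (SE 0.28, edgeR adjusted p = 0.020), with a change of -1.13 in the neighbours. Defb1, a secreted antimicrobial peptide gene, differed by 1.39 (SE 0.34, edgeR adjusted p = 0.031): it changed by -0.13 in intercalated nuclei and -1.10 in the neighbours. Intercalated nuclei held Defb1 at 99.7 to 333 CPM over the libraries and other nuclei at 13.2 to 104 CPM. DESeq2 called none of these differences at an adjusted p of 0.05 (284 at an unadjusted p of 0.05), and 1 remained called with the barcode set as a term.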

How the data were processed

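The authors deposited raw UMI counts per gene and nucleus in a control and an IRI table. Per the submitters' processing notes, tools included STAR, Cell Ranger and Seurat, with build mm10 and no versions stated. Genes in both tables (16939) were used, while 516 and 2403 were in 1 table only. The nuclei and all lists were chosen with earlier results of these data known. Doublets were gated at the sorter, per the labels' protocols, and no caller was run. UMIs were summed over intercalated nuclei per mouse and compared in R 4.3.3 with edgeR 4.0.16 (TMM, filterByExpr, quasi-likelihood F tests, 9 mice in 1 fit, threshold 0.05), with DESeq2 1.42.0 as an alternative. Shares were compared by exact permutation over mice. A control library held 1833617 to 9622439 UMIs and an IRI library 2409411 to 14641038. On simulated counts for the IRI comparison (2055 genes), 94.0% of 4-fold and 30.9% of 2-fold changes were recovered. Genes named are the choosing genes, fixed markers, called list members (up to 4 a list), the 8 largest called rises and falls with at least 30 UMIs, and the 15 genes highest over other nuclei with at least 100 UMIs; Car12 in v2 libraries was named after its value was seen. Proximal tubule genes were left out of the sums, rule minimums of 2 and 4 UMIs tried, and each library left out in turn.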

Additional observations from a re-analysis of the deposited data

Results flagged for a closer look

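Genes whose IRI change differed between intercalated nuclei and connecting tubule and principal cell nuclei are given here as log2 differences, each tested by the edgeR interaction. Higher in intercalated nuclei were Itpkb (6.53), Flrt1 (6.51), Bcat1 (3.74), Prkd1 (3.43), Npnt (2.88) and Tmem52b (2.75), with adjusted p from 0.031 to 0.045. Lower were Hs3st5 (-6.64), Slc9a9 (-6.38), Arhgap28 (-5.95), Negr1 (-5.21), Tshr (-3.56), Ccbe1 (-3.51), Thsd7a (-2.95) and Epb41l2 (-2.89), with adjusted p from 0.0030 to 0.038. Scnn1b (3.32) and Slc8a1 (2.47) were also higher, but both helped to choose the neighbouring nuclei, so they are a description. Of the 528 Slc8a1 UMIs in intercalated nuclei of day 28 mouse 3, 518 came from 1 nucleus. From the lists, Car12 (1.24), Defb1 (1.39), Slc12a1 (1.89) and Wnk1 (1.17) were higher. Slc12a1 was at 2040 CPM in the 32 IRI nuclei with 1 choosing gene, 269 CPM in the 119 with 2 or more and 259 CPM in control nuclei with 2 or more. Of its 47 UMIs in day 28 mouse 3, 45 came from 1 nucleus. Fitted values of 5 and above rest on groups with few or no UMIs and depend on the prior count. None of the 49 groups of 4 mice tested for a sample far from the others held one.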

How the results depend on the processing

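Differences in the share of intercalated nuclei were 0.144 to 0.447 points (IRI) and 0.335 to 0.802 points (day 28 against day 7) without single mice; no alternative for IRI passed the threshold, and for the times at most 10 splits allowed none to pass. Genes called for IRI (401) numbered 5 with the barcode term, 23 among v2 libraries (chosen after seeing the data) and 207 to 531 without single libraries, most without day 28 mouse 1. Between the times (19) they numbered 63 without a filter, 12 in nuclei with 2 or more choosing genes, 11 at 4 UMIs or more, and 1 to 44 without single libraries. For the interaction (31) they numbered 19 at 4 UMIs or more, 1 with the barcode term, 0 by DESeq2 and 9 to 43 without single libraries; DESeq2 size factors gave 13 higher and 11 lower. IRI changes that turned sign: with the barcode term mt-Cytb 0.12, Foxi1 0.16, Atp6v1b1 -0.000597, Atp6v0a4 0.13, Kit -0.82, Kcnma1 -0.0722, Runx1 -2.35 and Miox 1.35; among v2 libraries mt-Cytb 0.16, Atp6v0d2 0.11, Atp6v1g3 0.0564, Atp6v1c2 0.0285, Foxi1 0.0683, Atp6v0a4 0.39, Atp6v0b 0.46, Clcn3 0.0084 and Miox 0.80; Atp6v1b1 -0.0455 without control mouse 3 (-0.0455 to 0.40 over single libraries); Atp6v0a4 0.0361 without a filter, 0.0320 in nuclei with 2 or more choosing genes and 0.0377 with the replicate block. The cause was not tested. Same-numbered mice correlated at -0.103 to 0.121, so they share only a number; the replicate block gave 327, 19 and 30 calls and share differences of 0.389 and 0.531 points. Each library held at least 20 intercalated nuclei, so a minimum of 20 changed nothing. At this depth 2-fold changes were often not detectable.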
